A study of Mus musculus with 46 samples.

Results

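The cytosolic ribosomal protein genes encode the proteins of the ribosome that works in the cytoplasm. They were taken as every gene whose symbol is Rpl or Rps followed by a digit, Rplp0 to Rplp2 or Rpsa, without symbols ending in a -ps number, which mark pseudogenes, and without the kinase genes named Rps6k. Of 93 such symbols, 86 reached a mean of 1 CPM (counts scaled to a common library size) over all libraries, out of 55416 genes in the count tables. They comprise 43 genes of the large subunit, 3 genes of its stalk, 31 genes of the small subunit and 9 paralogs or genes that only share the naming (Rpl22l1, Rpl36al, Rpl37rt, Rpl7l1, Rps19bp1, Rps27l, Rps27rt, Rps3a2 and Rps4l). Just inside the minimum lay Rps3a2 (1.07 CPM) and Rpl37rt (3.64 CPM), and just outside it Rps3a3 (0.578 CPM) and Rpl6l (0.218 CPM). All 86 passed the filter on low counts in each comparison, and 300 -ps symbols and 9 Rps6k symbols were left aside.

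Bulk RNA sequencing had been done on 46 livers, taken from male mice and snap-frozen, which form 10 groups in 4 tables of raw counts. In the Plvap line, Cre under the Lrat promoter, which is active in hepatic stellate cells, deleted the gene for plasmalemma vesicle-associated protein, Plvap, on a C57BL/6JBomTac background. The labels name the line Plvaptm1.1Salm-Tg(Lrat-cre)1Rshw and set knockouts against Plvap controls without saying which of these alleles a control carries, and they give no ages. These mice were compared on chow after a 12 h fast (5 knockout and 6 control livers), on chow after a 10 h fast and 2 h of refeeding (4 and 4), after western diet for 6 weeks, with fructose added to the water (4 and 5), and after 6 weeks of high-fat diet (5 and 5), both diets with a 12 h fast. The other line carried a whole-body deletion of Cav1, which encodes the caveolar coat protein caveolin-1, kept as STOCK Cav1tm1Mls/J (4 livers), and was set against wild-type C57BL/6N mice (4 livers), both on chow after a 6 h fast. Genotype and mouse stock cannot be told apart in the Cav1 comparison.

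A ribosome has a small subunit, which reads the messenger RNA, and a large subunit, which forms the peptide bonds. Each subunit is built from ribosomal RNA and a fixed set of proteins in roughly equal number, so their genes are usually expressed as one block. The messenger RNAs of these genes mostly begin with a C followed by an unbroken stretch of C and T letters, the 5′ terminal oligopyrimidine tract, through which their translation responds to the nutrient-sensing kinase complex mTORC1. In the liver, ribosome content rises with feeding and falls with fasting, and ribosomal proteins that are not built into ribosomes can raise p53 by binding its ubiquitin ligase Mdm2.

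The start of the transcript is shown for members on which the results below turn, as 30 bases of the RefSeq promoter table on GRCm38.p6, read on the gene's strand from 10 bases before to 20 bases from the annotated start on. Capitals mark the longest unbroken run of C and T letters where it has 7 or more. The first 4 of these windows hold such a run and the last 4 do not.
Rpl7a: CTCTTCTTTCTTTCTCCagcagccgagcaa
Rps6: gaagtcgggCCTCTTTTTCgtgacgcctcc
Rps24: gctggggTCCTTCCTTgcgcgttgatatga
Rps27l: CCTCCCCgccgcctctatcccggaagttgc
Rps13: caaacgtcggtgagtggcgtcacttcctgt
Rpl13: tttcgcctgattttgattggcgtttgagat
Rpl37a: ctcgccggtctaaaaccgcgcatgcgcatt
Rpl36al: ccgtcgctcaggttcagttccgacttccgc
The windows lie at chr2:26910797-26910826 (plus strand) for Rpl7a, chr4:86857348-86857377 (minus) for Rps6, chr14:24490668-24490697 (plus) for Rps24, chr9:66946076-66946105 (plus) for Rps27l, chr7:116334171-116334200 (minus) for Rps13, chr8:123102340-123102369 (plus) for Rpl13, chr1:72711250-72711279 (plus) for Rpl37a and chr12:69184048-69184077 (minus) for Rpl36al. Rps24 and Rps27l have more than one annotated start, of which the first is shown. In Rpl7a the run spans 17 letters around the start, and in Rps6 it spans 10 letters that begin 1 base before it. Of the 64 members found in the table, 32 (50%) had a run of 7 or more C and T letters in the window, against 20.5% of 27025 genes. On the opposite strand 4 members (6.25%) had one, against 23.4% of all genes. The window is set by the annotated start, so a missing run says only that these letters are not within it. A run was counted anywhere in the window of any annotated start, so it need not open the transcript. That of Rps27l lies wholly before the annotated start, and that of Rplp0 begins at base 12 from it.

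Together the 86 genes held between 0.931% and 3.53% of all counts in a liver, in libraries of 6656342 to 23311539 counts. Counts of mitochondrial genes made up 0% of every refed library and 3.35% to 6.85% of the other libraries. Shares of counts in refed livers are thus taken of a different total than those in the other livers. By CPM, Rps14 of the small subunit led with a mean of 787 CPM over all livers, followed by Rps3 of the small subunit, which is also a DNA repair endonuclease, with 709 CPM and the stalk base protein gene Rplp0 with 531 CPM. The 10 most abundant members held 28.7% of the family's counts. The lowest member with a core ribosomal protein was Rps10 with 5.90 CPM. Its exons overlap those of 2 other annotated genes over 28.7% of its length, and reads in such stretches can be split or dropped in counting. The 2 members with an overlap over 50%, Rpl35 (66.2%) and Rpl23a (62.3%), had 111 and 45.5 CPM. Whether overlap bears on the level of Rps10 was not tested. Per kilobase of gene length, levels ran highest for the stalk gene Rplp1 (886 CPM per kb), Rps27l (568.2) and Rps15 (423.95), and lowest for Rps3a2 (1.34), Rps10 (2.55) and Rpl37rt (4.84), around a median of 89.8 CPM per kb. Since 84 members share sequence stretches of 50 bases with other genes, and 4 of them share over 90% of such stretches, absolute levels of single members are uncertain.

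The largest differences between group means belonged to Rpl39, Rps27 and Rps27a, the last of which encodes a fusion of ubiquitin with a small subunit protein. Rpl39, a short protein at the exit tunnel of the large subunit, averaged 225 ± 15.0 CPM in western diet Plvap knockout livers (SD, n = 4), against 26.1 ± 3.50 CPM in the Cav1 experiment's wild-type livers (SD, n = 4). Rps27 averaged 593 ± 23.0 CPM and 87.6 ± 10.54 CPM in the same groups. These groups come from different tables, so that table, mouse stock, fast and diet cannot be told apart, and all further comparisons stay within a table or within the Plvap line.

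The targeted genes were low where the labels say so. Plvap averaged 5.32 to 7.28 CPM in the 4 knockout groups and 26.8 to 32.5 CPM in their controls, and Cav1 averaged 0.843 CPM in Cav1 knockout livers and 5.15 CPM in wild types. The 6 hepatocyte markers were all detected in every group. The transcript of albumin, Alb, held more of the counts in each knockout group: 5.58% in fasted Plvap knockouts and 3.02% in their controls, 7.58% and 4.79% when refed, 4.56% and 3.00% on western diet, 5.45% and 2.66% on high-fat diet, and 7.60% and 5.54% in Cav1 knockouts and wild types. In bulk tissue, fewer cells of a type and less RNA per cell cannot be told apart, and whether the share of albumin bears on the ribosomal protein genes was not tested.

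**Figure D1:**
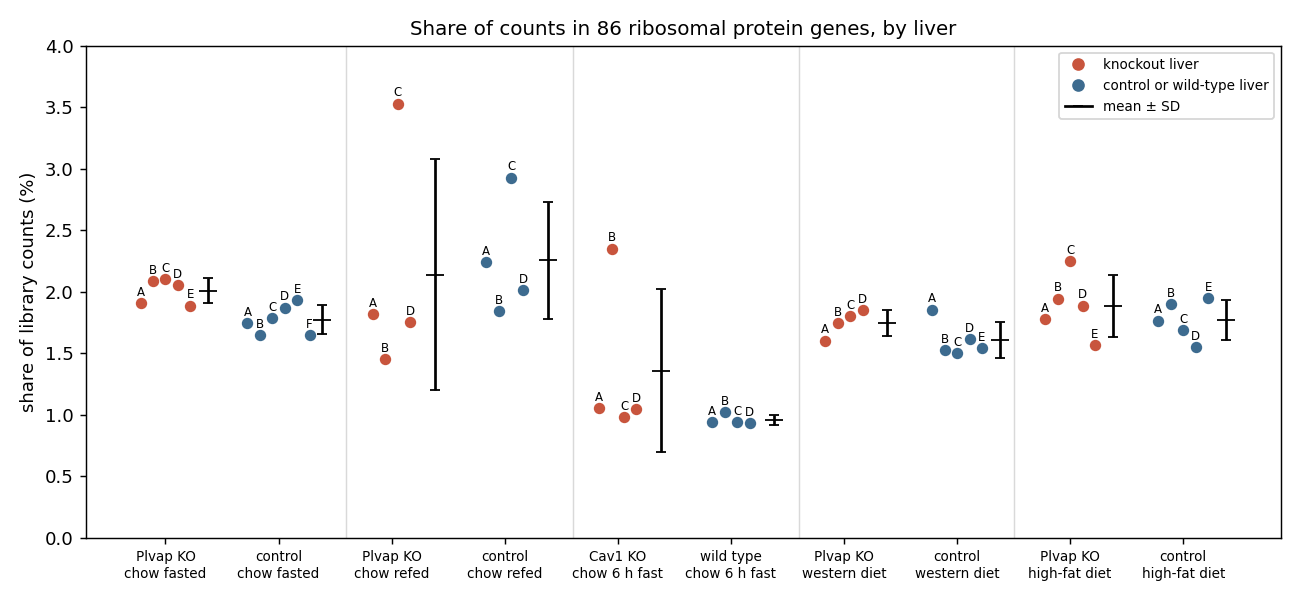
Share of all counts (percent) held by the 86 ribosomal protein genes in each of the 46 livers, one lettered point per liver, knockout groups left of their controls, with bars for mean ± SD. Liver B of the Cav1 knockouts (2.35%) and liver C of the refed knockouts (3.53%) and refed controls (2.93%) stand above the other livers of their groups.

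A group of 3 libraries stood apart on the high side in the family as a whole. In Cav1 knockout liver B the members held 2.35% of counts, which was 2.29 times the mean of the other 3 knockout livers. Liver C of the refed Plvap knockouts held 3.53%, or 2.11 times the mean of the others, and liver C of the refed controls held 2.93%, or 1.44 times. Relative to the mean of the other livers of its group, the median member was higher by 1.06 on the log2 scale in Cav1 knockout B, by 0.87 in refed knockout C and by 0.50 in refed control C. Members over 2-fold above the others numbered 44 (51.2%), 34 (39.5%) and 7 (8.14%), against 4.95%, 3.65% and 0.975% of all genes at 1 CPM or more. The 3 livers were picked for their high member values, so an excess over all genes follows in part from that choice. Refed knockout B lay on the low side, with 1.45% of counts in the members. Set against knockouts A and D, its median member was at -0.38 on the log2 scale, and 85 of 86 members were below 0. It was kept among the other livers in the ratios above.

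The members were ordered by their ratios to the other livers in nearly the same way in each of the 3 high libraries. Among the 10 members with the largest ratios, 8 were shared by all 3 libraries: Rpl17, Rpl22l1, Rpl34, Rpl35, Rps12, Rps24, Rps25 and Rps27l. Across the 86 members, Spearman's rho of the ratios was 0.95 between Cav1 knockout B and refed knockout C, 0.94 between the refed libraries lettered C and 0.89 between Cav1 knockout B and refed control C. These are descriptions over genes that share each library. Rps24, a small subunit protein mutated in Diamond-Blackfan anaemia, reached 980 CPM in Cav1 knockout B, against 132, 103 and 138 CPM in knockouts A, C and D and 105 to 122 CPM in the wild types. Rps27l, a p53-inducible paralog of Rps27, reached 1363 CPM in the same liver, against 161, 134 and 202 CPM in the other knockouts. Rpl4, a large subunit protein that lines the exit tunnel, did not share in this, with 412.2 CPM in that liver against 490, 416.5 and 472 CPM in the others.

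Other gene lists were set against the same livers. Subunits of oxidative phosphorylation had median ratios of 0.74, 0.61 and 0.17 on the log2 scale in Cav1 knockout B, refed knockout C and refed control C, and mitochondrial ribosomal proteins had 0.48, 0.42 and 0.14. Oligopyrimidine transcripts outside the family, which encode translation factors, had 0.15, 0.08 and 0.17, and ribosome assembly factors had -0.12, -0.18 and -0.02. The p53 targets had -0.17, 0.40 and 0.26, over 9, 10 and 10 genes. Gene length moved with the ratios across the other genes of the library. Over 12136 genes outside the family, Spearman's rho of a gene's length and its log2 ratio to the mean of all livers of the table was -0.38 in Cav1 knockout B, against 0.15, 0.13 and -0.27 in knockouts A, C and D. Over 12125 genes it was -0.35 in refed knockout C, against 0.17 to 0.41 in the other refed knockouts, and -0.36 in refed control C, against -0.28 to 0.13 in the other refed controls. Each of these 3 livers thus had the lowest value of its group. Over members, Spearman's rho of the ratio with the annotated transcript length was -0.21 in Cav1 knockout B, and with GC content -0.26. Members with a C and T run in the window around the start had a median ratio of 1.51 in Cav1 knockout B. Those without one had 1.01, and in refed knockout C the medians were 1.12 and 0.81. What set these livers apart was not tested, and the family's medians in the comparisons that hold them are given with and without them.

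**Figure D2:**
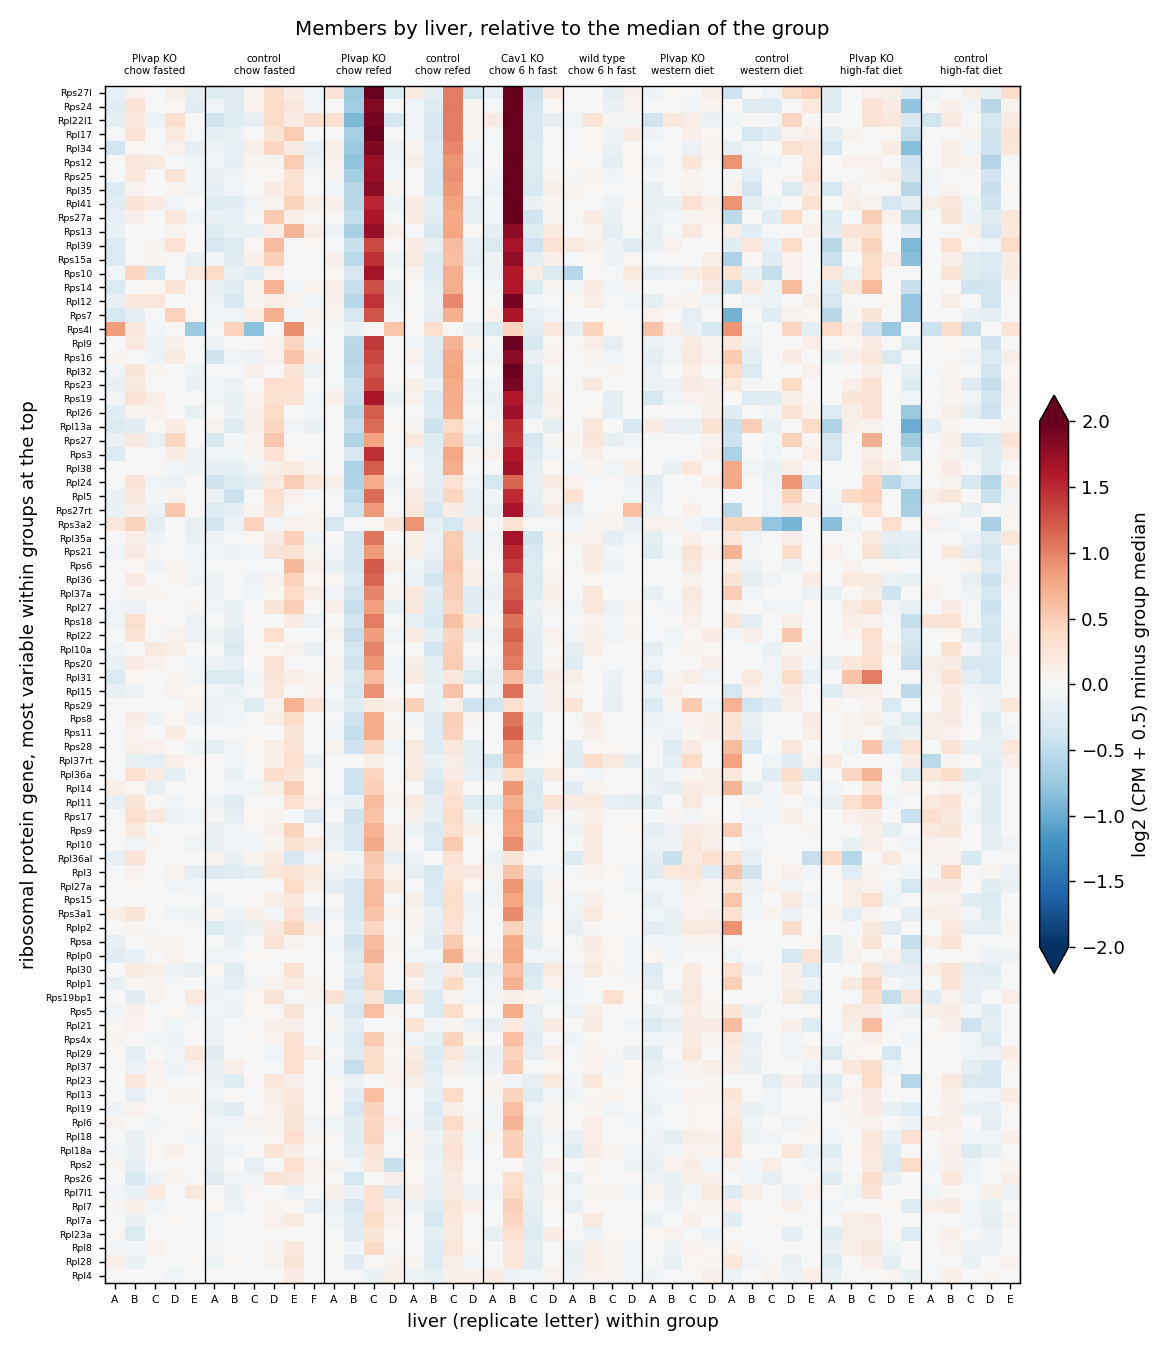
Heat map of the 86 members (down the page, most variable within groups at the top) in the 46 livers (across, knockouts left of their controls), coloured by log2 (CPM + 0.5) minus the median of the group. The columns of Cav1 knockout B, refed knockout C and refed control C are high over most members, more so at the top, where Rps27l, Rps24 and Rpl22l1 lie, than at the bottom, where Rpl4 and Rpl28 lie. The order of the members was computed with these livers included, so their stronger excess at the top follows from it.

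In 12 h fasted livers on chow, 5 of the 86 ribosomal protein genes rose in Plvap knockouts, set against controls, and the other members had estimates that did not pass the test. The members held 1.91%, 2.08%, 2.10%, 2.05% and 1.89% of counts in knockout livers A to E, against 1.65% to 1.94% with a median of 1.77% in the 6 control livers. The group means were 2.01% ± 0.102 and 1.77% ± 0.116 (SD, n = 5 and 6). Control E, with 1.94%, lay within the range of the knockouts, and the other 5 controls lay below every knockout. The median log2 fold change of the members was 0.24, with quartiles of 0.17 and 0.30, against -0.01 over all 12840 genes tested, and 81 members were above 0, against 49% of all genes. There were 5 members that passed the threshold of an adjusted p under 0.05 in edgeR's quasi-likelihood test, all of them higher, which is 5.81% of the family beside 2.25% of all genes in either direction and 1.13% in this one. At an unadjusted p under 0.05 there were 51 of 86 members, beside 2262 of all 12840 genes.

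Of these 5, 4 belong to the large subunit and 1 to its stalk. Rpl13, on chromosome 8 at 123829089-123831983 of GRCm39, had 192, 171, 187, 200 and 199 CPM in knockouts, against 137 to 168 CPM with a median of 145 in controls. The groups did not overlap. Its log2 fold change was 0.35 ± 0.08 (SE, edgeR adjusted p = 0.0337). Rplp0, the base of the stalk that recruits elongation factors (chromosome 5, 115697526-115701786), had 561, 580, 662, 696 and 653 CPM in knockouts, against 475 to 516 CPM with a median of 504 in controls. Again every knockout lay above every control, and the log2 fold change was 0.34 ± 0.08 (edgeR adjusted p = 0.0442). Rpl7a, also of the large subunit (chromosome 2, 26800776-26803330), had 338, 307, 338, 349 and 336 CPM in knockouts, against 253 to 300 CPM with a median of 265 in controls, and did not overlap either (0.31 ± 0.08, edgeR adjusted p = 0.0466).

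Rpl37a averaged 156 ± 5.26 CPM in knockouts and 120 ± 17.04 CPM in controls (SD, n = 5 and 6), with control E at 152 CPM inside the knockout range (log2 fold change 0.38 ± 0.09, edgeR adjusted p = 0.0437). Rpl17, which lies at the mouth of the exit tunnel, averaged 474 ± 49.1 CPM and 340 ± 65.1 CPM, with control E at 453 CPM (0.49 ± 0.12, edgeR adjusted p = 0.0454). Members whose groups did not overlap numbered 5, all higher (Rpl13, Rpl7a, Rpl8, Rplp0 and Rps15), beside 1.22% of all genes. Small subunit genes had none called, with a median of 0.27 and 30 of 31 above 0. Large subunit genes had a median of 0.22 with 41 of 43 above 0, the 3 stalk genes 0.26, and the 9 paralogs and other genes 0.10 with 7 above 0. The largest estimate below 0 was that of Rps4l (-0.45 ± 0.34, edgeR adjusted p = 0.537).

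These 5 calls lay close to the threshold. The fit called 22 members without control E, 3 without knockout C, 1 without control F or without knockout B, and none without control A, B or C or knockout A, D or E, while the median stayed between 0.20 and 0.28. With the trend of fold change on gene length taken out, 1 call was left (Rpl13), beside 267 of all 12840 genes. DESeq2 called 24 members, beside 726 of 12204 genes.

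**Figure D3:**
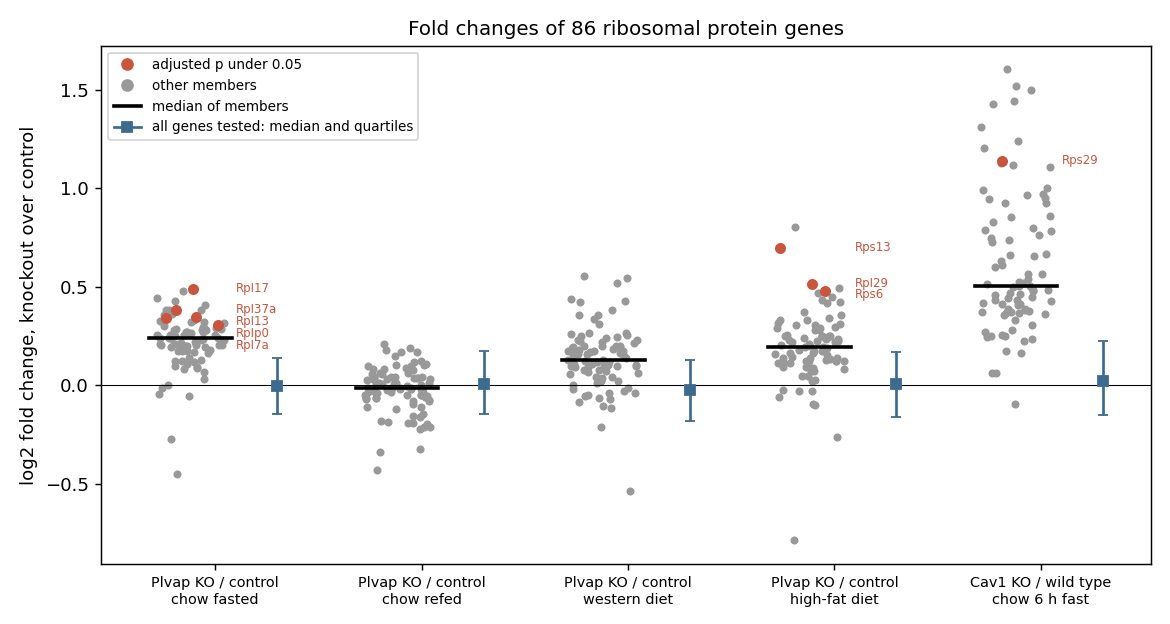
Log2 fold change of knockout over control for each of the 86 members (grey points) in the 5 knockout comparisons, with called members in red and named, the median of the members as a black bar, and the median and quartiles of all genes tested in blue. Most points lie above 0 in fasted, western diet, high-fat diet and Cav1 livers, and they straddle 0 in refed livers.

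Genes with related roles were tested in the same fit. Among 16 oligopyrimidine transcripts outside the family, 13 were above 0, with a median of 0.17. Eif3h, a subunit of the initiation factor that joins the small subunit, rose (0.32 ± 0.08, edgeR adjusted p = 0.0466), and Nap1l1, a histone chaperone, fell (-0.30 ± 0.07, edgeR adjusted p = 0.0442). Fau and Rack1, which encode ribosomal proteins under other symbols, had 0.23 ± 0.10 and 0.29 ± 0.09 on the log2 scale, and neither passed the test (the smaller edgeR adjusted p was 0.101, for Rack1). The 37 ribosome assembly factors had a median of -0.02 with 16 above 0. Polr1c, a subunit shared by RNA polymerases I and III, was the only one called (0.39 ± 0.09, edgeR adjusted p = 0.0399). None of 19 genes of mTORC1 signalling, its targets and the oligopyrimidine-binding protein Larp1 was called by edgeR, with a median of -0.05. Of 10 p53 targets, Bax, which permeabilizes mitochondria in apoptosis (0.46 ± 0.09, adjusted p = 0.0121), and Phlda3, an inhibitor of Akt (0.87 ± 0.19, adjusted p = 0.0239), rose, and the median was 0.45. Mitochondrial ribosomal proteins (median 0.01, none of 77 called) and oxidative phosphorylation subunits (median 0.02, with Cox7a2l called higher among 78) stayed near the median of all genes. The summed hepatocyte markers ranged from 78501 to 98289 CPM in knockouts and from 45948 to 58937 CPM in controls. Within these sums Alb alone averaged 57313 and 29488 CPM. It was the only one of the 6 called (0.96 ± 0.12, edgeR adjusted p = 0.000582), while all 6 were above 0 with a median of 0.35. The 6 Kupffer cell markers, of which none was called, ranged from 552 to 775 CPM in knockouts and from 382.9 to 620 CPM in controls. The 6 B and plasma cell markers ranged from 43.7 to 57.1 CPM in knockouts and from 27.6 to 44.1 CPM in controls, with the immunoglobulin gene Igkc called higher (0.61 ± 0.15, edgeR adjusted p = 0.0488). Of the 7 endothelial markers, Ptprb was called lower (-0.40 ± 0.09, edgeR adjusted p = 0.0288). Their part in the members' difference was not tested.

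In refed livers no difference between Plvap knockouts and controls was detected for any member. The members held 1.82%, 1.45%, 3.53% and 1.76% of counts in knockout livers A to D, against 2.24%, 1.84%, 2.93% and 2.01% in controls A to D. Liver C was the highest of its group in both, and the groups overlapped. The means were 2.14% ± 0.941 in knockouts and 2.26% ± 0.477 in controls (SD, n = 4 each), and 1.68% ± 0.197 and 2.03% ± 0.203 without both livers lettered C (n = 3 each). The median log2 fold change of the members was -0.01 with 40 above 0, beside 51.1% of all genes. EdgeR called 0 members, beside 0.0227% of all genes, and DESeq2 called 0. An unadjusted p under 0.05 was reached by 1 of 86 members and by 1024 of all 13228 genes. The median depended on single livers. It was -0.37 without knockout C, 0.13 without control C or without knockout B, -0.20 with 7 members above 0 without both livers lettered C, and -0.09 with 18 above 0 with the replicate letter as a block, and in none of these fits was a member called.

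Rps4l, a small subunit paralog, had the smallest p, with 13.7, 12.6, 14.1 and 20.6 CPM in knockouts, against 19.7, 25.1, 20.3 and 18.1 CPM in controls. The groups overlapped through knockout D. Its log2 fold change was -0.43 ± 0.18 (edgeR adjusted p = 0.596), and Rpl31 (-0.34 ± 0.20) and Rps19bp1, which encodes a binding partner of the small subunit protein Rps19 (-0.32 ± 0.19), both had an adjusted p of 0.712 in edgeR. The refed minus fasted difference of the knockout effect, in a joint fit of the 8 Plvap groups, had a median of -0.26 over members with 3 above 0, beside 52% of all genes. That median was -0.43 with 2 above 0 without both livers lettered C, -0.56 without refed knockout C, -0.09 with 21 above 0 without refed control C, -0.10 without refed knockout B and -0.16 with the length trend removed. EdgeR called 0 members, beside 0% of all genes, and DESeq2 called 0. An unadjusted p under 0.05 was reached by 12 of 86 members and by 1192 of all 14234 genes. Rps2, Rpl29 and Rpl8 had the smallest p (-0.49 ± 0.16, -0.44 ± 0.17 and -0.35 ± 0.13, with edgeR adjusted p = 0.482, 0.496 and 0.518). Fasted and refed livers come from separate tables, so that table and feeding state cannot be told apart in their levels.

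On western diet no member was called between knockouts and controls. They held 1.604%, 1.75%, 1.80% and 1.85% of counts in knockout livers A to D, against 1.86%, 1.52%, 1.503%, 1.62% and 1.54% in controls A to E. Control A was the highest of all 9 livers, and the other 4 controls lay below 3 of the 4 knockouts. The median log2 fold change was 0.13 with 72 members above 0, against -0.02 and 46.2% over all genes tested. EdgeR called 0 members, beside 0.0148% of all genes, and DESeq2 called 0. An unadjusted p under 0.05 was reached by 10 of 86 members and by 1325 of all 13533 genes. Groups of 10 members did not overlap, all higher (Rpl10, Rpl27, Rpl39, Rpl7a, Rps13, Rps15a, Rps26, Rps3, Rps7 and Rpsa), which is beside 1.48% of all genes.

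Rpl39 had 205, 240, 230 and 225 CPM in western diet knockouts, against 124, 169, 130, 194 and 146 CPM in controls (0.56 ± 0.20, edgeR adjusted p = 0.416). Rps7, a small subunit protein that binds Mdm2, had 494, 465, 414.1 and 464 CPM, against 185, 358, 309, 377.6 and 368 CPM (0.52 ± 0.19, adjusted p = 0.416 in edgeR). In both genes every knockout lay above every control. Rpl22l1, the paralog of Rpl22, had the smallest p of the family with 70.8, 107, 102 and 85.4 CPM, against 55.9, 59.1, 57.6, 79.3 and 59.9 CPM, where control D lay above knockout A (0.55 ± 0.15, edgeR adjusted p = 0.314). No gene of the 7 companion lists was called on this diet by edgeR. The oligopyrimidine transcripts outside the family had a median of 0.10, and the assembly factors had -0.11 with 9 of 37 above 0. Summed hepatocyte markers ranged from 61950 to 83879 CPM in knockouts and from 42650 to 58169 CPM in controls. Within these sums Alb alone averaged 47555 and 29676 CPM. None of the 6 markers was called by edgeR, with 5 above 0 and a median of 0.21.

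On high-fat diet 3 members rose in knockouts, 2 of the small and 1 of the large subunit, which is 3.49% of the family beside 0.281% of all genes in either direction and 0.2% in this one. The members held 1.78%, 1.95%, 2.25%, 1.89% and 1.57% of counts in knockout livers A to E, against 1.77%, 1.90%, 1.69%, 1.55% and 1.95% in controls A to E, so that these shares overlapped. The median log2 fold change was 0.20 with 78 members above 0, against 0.01 and 51.5% over all genes tested. An unadjusted p under 0.05 was reached by 33 of 86 members and by 1873 of all 13533 genes.

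Rps6, the small subunit protein that S6 kinase phosphorylates downstream of mTORC1 (chromosome 4, 86772897-86775649), had 113, 122, 116, 119 and 113 CPM in knockouts, against 83.6, 85.3, 89.3, 69.7 and 90.5 CPM in controls. The knockouts lay close together and above every control. Its log2 fold change was 0.48 ± 0.09 (edgeR adjusted p = 0.0159). Rps13 (chromosome 7, 115930740-115933430) had 136, 187, 194, 157 and 137 CPM in knockouts, against 100.1, 98.7, 108, 79.1 and 116 CPM in controls, again without overlap (0.70 ± 0.12, edgeR adjusted p = 0.0159). Rpl29, a large subunit protein also known as a heparin-binding protein at cell surfaces (chromosome 9, 106306653-106308767), had 76.0, 96.2, 95.4, 73.4 and 92.9 CPM, against 61.2, 60.9, 57.5, 55.8 and 67.7 CPM (0.52 ± 0.10, edgeR adjusted p = 0.0299). In fasted livers these genes did not pass the test, with estimates of 0.44 ± 0.12 for Rps6, 0.49 ± 0.14 for Rps13 and 0.38 ± 0.10 for Rpl29 (edgeR adjusted p = 0.0598, 0.0748 and 0.0563).

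On high-fat diet the groups of 12 members did not overlap in the higher direction (Rpl14, Rpl27, Rpl29, Rpl37, Rpl37rt, Rpl6, Rpl7a, Rps13, Rps16, Rps29, Rps4x and Rps6), beside 1.81% of all genes. Those of 1 did not overlap in the lower direction, Rpl36al, beside 1.49%. Rpl36al, the paralog of the X-linked Rpl36a (chromosome 12, 69229505-69230857), had 12.6, 6.16, 9.44, 10.7 and 9.34 CPM in knockouts, against 17.9, 18.02, 13.7, 16.7 and 16.9 CPM in controls (-0.79 ± 0.18, edgeR adjusted p = 0.0588). It overlaps another annotated gene over 24.5% of its exonic length. Rpl36a itself had 0.09 ± 0.17 on this diet (edgeR adjusted p = 0.865).

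**Figure D4:**
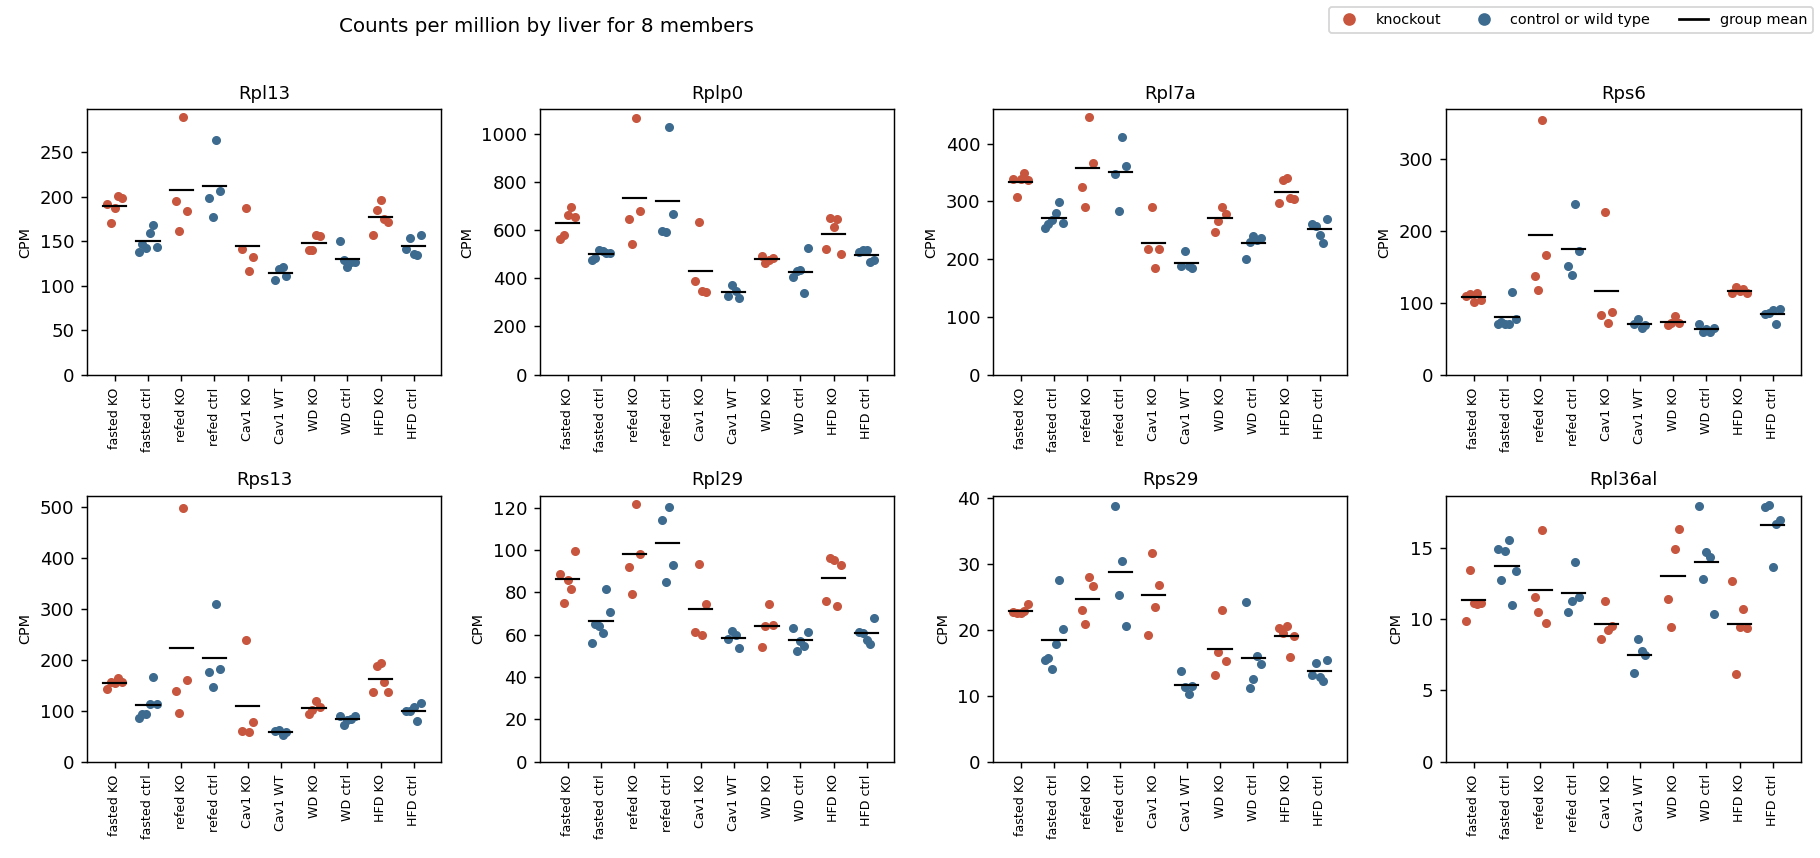
TMM-normalised CPM of 8 members in each liver, one panel per gene with axes from 0, one point per liver (knockout in red, control or wild type in blue) and a bar at each group mean, with western diet written WD and high-fat diet HFD. Rps6, Rps13 and Rpl29 lie higher in every HFD knockout than in every HFD control, Rps29 lies higher in every Cav1 knockout than in every wild type, and Rpl36al lies lower in every HFD knockout than in every HFD control.

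The high-fat calls rested on part of the libraries. Without control B, control D or knockout B no member was called, and without liver A of the western diet controls, which enters the shared estimate of spread, 9 were called. DESeq2 called 13, of which 12 were higher, beside 253 of 12545 genes. With the trend of fold change on GC content taken out, 2 of the 3 calls were left, and the median was 0.17. No gene of the companion lists was called, with 15 of 16 oligopyrimidine transcripts outside the family above 0 (median 0.18) and all 11 p53 targets above 0 (median 0.29). The elongation factor gene Eef2 had 0.44 ± 0.10 (edgeR adjusted p = 0.0672). Alb was 1.13 ± 0.17 higher on the log2 scale (edgeR adjusted p = 0.00792), and summed hepatocyte markers ranged from 70800 to 103320 CPM in knockouts and from 42276 to 48021 CPM in controls. Within these sums Alb alone averaged 55494 and 25308 CPM. It was the only one of the 6 hepatocyte markers called, with 5 above 0 and a median of 0.33. The B and plasma cell markers ranged from 29.9 to 66.5 CPM in knockouts and from 17.8 to 34.1 CPM in controls, with all 6 above 0 (median 0.95) and Cd79a, a chain of the B cell receptor complex, called higher (1.81 ± 0.38, edgeR adjusted p = 0.0452). Their part in these differences was not tested.

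Across fasted, western and high-fat livers, 65 of 86 members (75.6%) were above 0 in all 3 comparisons, against 18.3% of 12800 genes. Rpl36al and Rps4l were below 0 in all 3. The western and high-fat comparisons share 1 fit but no livers, and the fasted livers are in another table. The difference of the Plvap effect between western and high-fat diet had a median of -0.10 over members with 30 above 0, beside 44.6% of all genes. Without western diet control A it was -0.01 with 40 above 0, without high-fat knockout C -0.04, without high-fat control D -0.05, and with the GC trend removed -0.03. EdgeR called 0 members, beside 0% of all genes, and DESeq2 called 0. An unadjusted p under 0.05 was reached by 5 of 86 members and by 1546 of all 13533 genes. Rpl36al had the smallest p in this test (0.67 ± 0.26, edgeR adjusted p = 0.341), followed by Rpl29 (-0.37 ± 0.15, adjusted p = 0.363 in edgeR) and Rpl37 (-0.33 ± 0.15, adjusted p = 0.406 in edgeR).

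Averaged over the 4 states of the Plvap line in the joint fit, which uses the same livers as the comparisons above, 10 members were higher and 1 lower, or 12.8% of the family beside 5.58% of all genes (3.13% higher and 2.45% lower). The median was 0.14 with 80 members above 0, against a median close to 0 and 48.7% above 0 over all genes tested. It was 0.07 with 66 above 0 without refed knockout C, and 0.10 with 74 above 0 without both refed livers lettered C. The higher ones were Rpl7a, Rpl29, Rpl37, Rpl13, Rpl23a and Rpl8 of the large subunit and Rps6, Rps2, Rps26 and Rps4x of the small subunit, and the lower one was Rpl36al. Rpl7a had the smallest p (0.23 ± 0.05, edgeR adjusted p = 0.00257). It had estimates of 0.31 ± 0.08 in fasted, 0.04 ± 0.16 in refed, 0.24 ± 0.09 in western diet and 0.33 ± 0.09 in high-fat livers. Rps6 averaged 0.32 ± 0.09 (edgeR adjusted p = 0.0241), with 0.44 ± 0.12, 0.17 ± 0.35, 0.20 ± 0.09 and 0.48 ± 0.09 in the 4 states. Rpl36al averaged -0.28 ± 0.08 (edgeR adjusted p = 0.0342), with -0.27 ± 0.11, 0.04 ± 0.18, -0.11 ± 0.19 and -0.79 ± 0.18. Without high-fat knockout B or refed control B, 7 members were called. Hepatocyte and B cell markers were called higher in the same average, namely Alb (0.88 ± 0.07, edgeR adjusted p = 6.66e-11), Apoa1, Serpinc1, Ttr and Cd79a. Their part in the members' average was not tested.

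Transcripts of the translation machinery outside the family were tested in the same average. Of the 16 oligopyrimidine transcripts, 6 rose, among them Eef1a1, which carries aminoacyl-tRNA to the ribosome (0.24 ± 0.05, edgeR adjusted p = 0.00185), and Pabpc1, which binds poly(A) tails (0.26 ± 0.05, edgeR adjusted p = 0.00271). Nap1l1 fell (-0.26 ± 0.05, edgeR adjusted p = 0.00147), and the median of this list was 0.13. None of the 37 assembly factors (median -0.06) and none of the 19 mTORC1 genes (median 0.02) was called by edgeR. Of the paralog pairs, Rps27 and Rps27l had 0.22 ± 0.11 and 0.16 ± 0.16, Rpl22 and Rpl22l1 had 0.04 ± 0.08 and 0.30 ± 0.16, and Rpl7 and Rpl7l1 had 0.10 ± 0.05 and -0.02 ± 0.05 in this average, and none passed the test.

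Between the diets, ribosomal protein genes passed the test in the lower direction on western diet, set against high-fat diet, in knockouts and in controls. In knockouts, 11 members were lower and none higher, or 12.8% of the family beside 8.45% of all genes in either direction and 4.01% in this one. The median was -0.16 with 27 above 0, against -0.04 and 45.2% over all genes tested. Over the other genes, Spearman's rho of this fold change and GC content was -0.42. With the GC trend removed the members' median was -0.05 with 34 above 0 and 5 were called, with the replicate letter as a block 4 were called, and without high-fat knockout C the median was -0.09. In controls, 3 members were lower, or 3.49% beside 2.09% of all genes in either direction and 0.99% in this one, with a median of -0.06 that ranged from -0.09 to -0.03 with each liver left out in turn. It was -0.03 without high-fat control B, -0.04 without western diet control C, and -0.09 without high-fat control D or without western diet control A. Both contrasts come from the fit of 4 groups that also gave the knockout comparisons, and the diet groups are those given above.

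Rps6 had 69.3, 71.7, 80.9 and 71.5 CPM in western diet knockouts, against 113 to 122 CPM in the 5 high-fat knockouts. The groups lay far apart, with a log2 fold change of -0.68 ± 0.09 (edgeR adjusted p = 0.00117). In controls it had 70.4, 58.8, 63.9, 59.4 and 64.9 CPM on western diet, against 69.7 to 90.5 CPM on high-fat diet, where control A on western diet overlapped high-fat control D (-0.40 ± 0.09, edgeR adjusted p = 0.0155). Rpl10, an X-linked large subunit protein near the peptidyl transferase centre, had 177, 170, 174, 177 and 178 CPM in western diet controls, against 206 to 248 CPM in high-fat controls, without overlap (-0.40 ± 0.09, edgeR adjusted p = 0.0168). In knockouts it had -0.35 ± 0.09 (edgeR adjusted p = 0.0267). Rps25, which some viral internal ribosome entry sites require, had -0.45 ± 0.11 in controls and -0.53 ± 0.12 in knockouts (edgeR adjusted p = 0.0339 and 0.0144). Rps13, Rpl29, Rps16, Rpl9, Rpl32, Rps4x, Rpl17 and Rpl35 also passed the threshold in knockouts, while the test of the difference between genotypes called no member, as given above. Without a western diet knockout in turn, 3 to 7 members were called in knockouts, with A giving 3, B 4, C 7 and D 3.

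Among the companions in knockout livers, Eef2 was lower on western diet (1071 ± 21.1 CPM, against 1529 ± 166 CPM on high-fat diet, SD, n = 4 and 5, log2 fold change -0.52 ± 0.11, edgeR adjusted p = 0.0120), together with Eef1d and Eef1g. The assembly factors Noc2l, Mybbp1a and Rrp9 were lower as well, with a median of -0.20 over the 37, and of the mTORC1 genes the S6 kinase gene Rps6kb1 was higher and Eif4ebp2 lower. Among oxidative phosphorylation subunits Cox6c, Ndufb8 and Atp5f1 were called higher (0.51 ± 0.15, 0.47 ± 0.14 and 0.43 ± 0.13, with edgeR adjusted p = 0.0401, 0.0401 and 0.0410), and the mitochondrial ribosomal protein gene Mrps18b was called lower. Markers of other cells were called lower as well, namely Kdr, Clec4g and Oit3 of the 7 endothelial markers, Ecm1 of the 8 stellate cell markers and Cela1 of the pancreatic ones. The endothelial markers summed to 192 to 234 CPM in western diet knockouts and to 233 to 286 CPM in high-fat knockouts. Their part in the members' difference was not tested.

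In Cav1 knockouts 1 member rose, and the median of the family was above 0 by an amount that depended on liver B. They held 1.05%, 2.35%, 0.981% and 1.05% of counts in knockout livers A to D, against 0.940%, 1.02%, 0.940% and 0.931% in wild-type livers A to D. All knockouts but C lay above every wild type. Means were 1.36% ± 0.664 in knockouts and 0.958% ± 0.0424 in wild types (SD, n = 4 each), and 1.03% ± 0.0398 in knockouts without liver B (n = 3). The median log2 fold change was 0.50 with 85 members above 0, against 0.02 and 53.9% over all genes tested, and 0.14 with 80 above 0 without liver B. EdgeR called 1 member, higher, or 1.16% of the family beside 4.68% of all genes in either direction and 2.57% in this one. At an unadjusted p under 0.05 there were 22 of 86 members, beside 2415 of all 12978 genes.

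The called member was Rps29, a small zinc-binding protein of the small subunit (chromosome 12, 69204496-69205960). It had 19.2, 31.7, 23.4 and 26.8 CPM in knockouts, against 13.7, 11.3, 10.2 and 11.5 CPM in wild types. Every knockout lay above every wild type, and liver B was the highest, followed by liver D. Its log2 fold change was 1.14 ± 0.16 (edgeR adjusted p = 0.00222), and the adjusted p was 0.000889 without liver B. It passed the threshold with each of the 8 livers left out in turn, with adjusted p between 0.000889 and 0.0131 in edgeR. In the Plvap line Rps29 had 0.32 ± 0.14 in fasted and 0.47 ± 0.17 in high-fat livers and did not pass the test there (edgeR adjusted p = 0.250 and 0.219).

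Next in order were Rpl3, a large subunit protein that reaches towards the peptidyl transferase centre, with 171, 243, 141 and 157 CPM in knockouts, against 124, 135, 131 and 123 CPM in wild types (0.50, edgeR adjusted p = 0.111), and Rpl7l1 (0.37 ± 0.12, edgeR adjusted p = 0.124). Without liver B these estimates were 0.30 and 0.23. Groups did not overlap for 12 members, all higher, beside 5.89% of all genes (Rpl12, Rpl19, Rpl3, Rpl36a, Rpl36al, Rpl37, Rpl7l1, Rplp1, Rplp2, Rps15a, Rps20 and Rps29). Fau and Rack1, which encode 2 further small subunit proteins, had 0.44 ± 0.25 and 0.48 ± 0.22 and were not called (edgeR adjusted p = 0.368 and 0.284). The medians of mitochondrial ribosomal proteins and of oxidative phosphorylation subunits were 0.27 and 0.26, with none of 77 called and with Sdha called lower among 77. Of the assembly factors Taf1b, a subunit of the RNA polymerase I selectivity factor, was called higher (0.93 ± 0.19, edgeR adjusted p = 0.0193). Summed hepatocyte markers ranged from 87581 to 120480 CPM in knockouts and from 67405 to 79515 CPM in wild types, and the 7 endothelial markers from 241 to 376 and from 367 to 424.2 CPM, with Apoa1, Alb and Fgb called higher and Clec4g called lower. Their part in the members' values was not tested.

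Short genes as a class leaned upward in several of these comparisons, and the members are short. Their median gene length in the tables was 1736.5 bases, against 4343 bases for the 12211 genes at 1 CPM or more. Over the other genes, Spearman's rho of fold change and length was -0.21 in fasted, 0.27 in refed, -0.14 in western diet, -0.11 in high-fat diet and -0.28 in Cav1 livers. A smooth trend of fold change on length over the other genes took a median value at the members' lengths of 0.06, -0.08, 0.03, 0.03 and 0.15 in these comparisons. The members' median distance above that trend was 0.19, 0.05, 0.11, 0.16 and 0.37, with 80, 62, 69, 76 and 82 of 86 members above it. The trend was thus smaller than the members' median in all but the refed comparison, where it had the same sign and was larger. For GC content in place of length, rho over the other genes was 0.02, -0.28, -0.20, 0.33 and -0.04 in the same order. On western and high-fat diet it was thus further from 0 than that of length. With the GC trend removed, the members' medians were 0.24, 0.01, 0.17, 0.17 and 0.51. Median fold changes were compared for 32 members with a C and T run in the window around the start and 32 without. They were 0.25 with a run and 0.23 without in fasted, and 0.00 and -0.01 in refed livers. In western diet livers they were 0.18 and 0.15, and in high-fat livers 0.21 and 0.18. In Cav1 livers, with liver B included, they were 0.63 and 0.47.

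**Figure D5:**
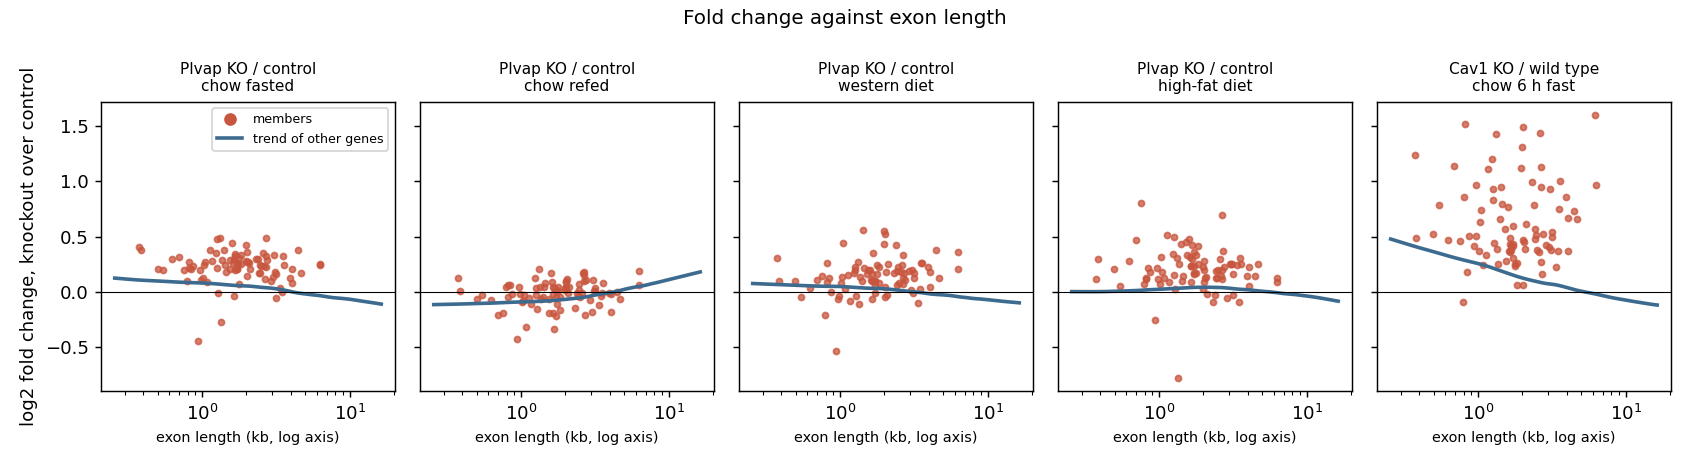
Log2 fold change of knockout over control (vertical) against exon length in kb on a log axis (horizontal) in the 5 knockout comparisons, with the 86 members as red points and the smooth trend of the other genes as a blue line. The members lie mostly above the line in each comparison, with 62 of 86 above it in refed livers and 82 in Cav1 livers.

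Members differed in how steady they were among livers of a group. The standard deviation of log2 CPM within groups was lowest for Rpl4 (0.0926), Rpl28 (0.127), Rpl8 (0.127), Rpl23a (0.138) and Rpl7a (0.150), all of the large subunit. It was highest for Rps27l (0.629), Rps24 (0.59995), Rpl22l1 (0.593), Rpl17 (0.587), Rpl34 (0.582) and Rps12 (0.578). This order depended on the 3 livers that stood apart. Without them these members had 0.244, 0.251, 0.284, 0.215, 0.246 and 0.260, and the highest were Rps4l (0.439), Rps3a2 (0.364) and Rpl24 (0.321). With all livers, the median was 0.281 over members and 0.197 over 7609 genes at 10 CPM or more. Without the 3 livers that stood apart it was 0.185 and 0.187. Pairs of members varied together within groups, with a median Pearson correlation of 0.737 over 3655 pairs and of 0.490 without these 3 livers. These livers were picked for their high member values. Lower spread and correlation of the members without them thus follow in part from that choice. The correlations are over genes of the same libraries and share their depth and normalization.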

How the data were processed

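RNA from 46 mouse livers was extracted with the Monarch Total RNA Miniprep kit and made into libraries with NEBNext Ultra RNA, per the labels' protocols. Reads were aligned with STAR 2.7.8a to GRCm39 and counted with featureCounts 2.0, per the submitters' processing notes. The annotation release, strand setting and treatment of multi-mapping reads are not given in the sources used here. As deposited, the 4 tables give unnormalised counts by Ensembl gene, with a length per gene in bases, per the file headers. Symbols were joined by Ensembl identifier and matched 52083 of 55416 genes. Genes without a symbol hold 0.764% of counts. Groups follow the sample characteristics, since the protocol text gives a 12 h fast throughout.

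Each comparison used edgeR 4.0.16 in R 4.3.3 (TMM, filterByExpr with minimum count 10 and total 15, robust quasi-likelihood F-test), adjusted by Benjamini-Hochberg over all genes tested and called at 0.05. SE is the log2 fold change over the square root of F. Fasted, refed and Cav1 livers were fitted on their own table, western and high-fat livers on the 4 diet groups, and the mean Plvap effect and the refed minus fasted difference on 8 joined groups. CPM values are TMM-normalised, and shares and mean levels over all livers use raw counts. Smooth trends of fold change on length used lowess with a span of 0.3. The fit was tested on simulated data. No library pair within groups had identical counts. The p-values measure the spread between libraries within groups, estimated over all groups of a fit, with each library taken as a separate liver. In refed livers the deviations of same-lettered knockouts and controls correlated at 0.308 to 0.35 in all 4 pairs. Livers of different letters were not compared in this way, so whether letters pair the livers is not known. The main tests used the group only, and the letter entered as a block in an alternative fit. The labels do not say what a letter marks.

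Members called (up to 8 by smallest p, or the 3 with the smallest p), the extremes of level per length and of group means, paralog pairs, up to 2 called genes per companion list, Plvap, Cav1 and Alb were named. Members whose groups do not overlap, the most and least variable ones and further list members were named after their values were seen. One companion gene that this rule names is not reported here. The members and lists were chosen with earlier results of these data known. Alternatives were DESeq2 1.42.0, its size factors, no filter, TMM without the members, the replicate letter as a block, the 2 compared groups alone, removal of the length trend and each liver left out. Removal of trends with GC content and annotated transcript length, and the fit without both refed livers lettered C, were chosen after seeing the data.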

Additional observations from a re-analysis of the deposited data

Results flagged for a closer look

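In 2 groups the share of counts in the family had a liver far from the others. Cav1 knockout liver B held 2.35%, against 0.981% to 1.05% in the other knockouts, and wild-type liver B of that experiment held 1.02%, against 0.931% to 0.940% in the other wild types. Among named members, Rpl22l1 in western diet control D stood above the other controls at 79.3 CPM, against 55.9 to 59.9 CPM, and Rps25 in high-fat control D stood below the others at 257 CPM, against 318 to 341 CPM. High-fat control D was also the shallowest library, with 6656342 counts. The shares of 10 groups and 52 sets of 1 gene in 1 group were screened with Dixon's ratio, of which 4 passed the 95% critical value, while chance gives about 1 in 20.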

How the results depend on the processing

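All 86 members were tested in each edgeR fit, while DESeq2 gave an adjusted p for 76 in Cav1, 85 in refed and in western diet livers and 84 in the difference between diets. The refed median, -0.01, changed sign to 0.05 without the length trend. With the replicate letter as a block, 12 members were called in fasted livers in place of 5 and 4 between diets in knockouts in place of 11. Over all genes the block gave 713 in place of 289 and 523 in place of 1143. It changed the other counts of members by at most 1.5 times, with 2 in place of 3 between diets in controls. DESeq2 called 24 in fasted livers, 13 on high-fat diet, 5 between diets in controls and 18 in knockouts. Over all genes it called 726 of 12204, 253 of 12545, 598 of 13115 and 1660 of 13690 in these comparisons. Without the filter on low counts, 12 were called in fasted livers, 17 in Cav1 livers, 5 on high-fat diet, 1 between diets in controls and 4 in the mean over 4 states. Over all genes these fits called 861 of 28449, 1279 of 29883, 99 of 30986, 269 of 30986 and 612 of 37300. Removing the length trend left 1 call in fasted livers and gave 5 on high-fat diet, beside 267 of 12840 and 58 of 13533 genes. Removing the transcript length trend left 3 in fasted livers, beside 265 of 12840 genes. Removing the GC trend left 2 on high-fat diet and 5 between diets in knockouts, beside 27 and 402 of 13533 genes. The cause of these shifts was not tested. With each liver left out in turn, calls ranged from 0 to 22 in fasted livers, 0 to 9 on high-fat diet, 2 to 5 between diets in controls, 3 to 14 in knockouts and 7 to 15 in the mean. For diets in controls, 5 were called without high-fat control D and 5 without high-fat knockout E. Medians ranged from 0.20 to 0.28 in fasted, -0.37 to 0.13 in refed, 0.10 to 0.18 in western diet, 0.14 to 0.25 in high-fat and 0.14 to 0.64 in Cav1 livers. Single calls of Rplp0 in fasted livers were lost without any one of the 11 livers, and of Rpl7a in 10 of 11. Group sizes of 4 to 6 and counts shared with near-identical copies limit what single members can show.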
